A study of Drosophila melanogaster with 13 samples.

Results

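The nuclear oxidative phosphorylation genes of Drosophila melanogaster were followed in RNA of dissected proboscises, the mouthparts whose tip, the labellum, bears taste hairs. Members were the gene symbols that begin with ND-, UQCR-, ATPsyn or COX with a digit of 4 to 8, together with Cyt-c1, Cyt-c-p and RFeSP, leaving out symbols that end in L. Of 77 matching symbols 15 ended in L, which left 62 members of 13893 genes. They comprised 35 genes of complex I, 8 of complex III, 1 of cytochrome c, 7 of complex IV and 11 of complex V. The name rule is not a full list of the pathway. It missed blw, the alpha subunit of ATP synthase, levy and cype of complex IV and ox of complex III, and its final-letter clause left out ND-MNLL, a subunit of complex I.

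Oxidative phosphorylation takes place at the inner mitochondrial membrane. Complexes I and II pass electrons to ubiquinone, complex III passes them on to cytochrome c, and complex IV passes them to oxygen. Complexes I, III and IV pump protons, and complex V, the ATP synthase, makes ATP as the protons flow back. Most subunits are encoded in the nucleus, while a few hydrophobic ones of complexes I, III, IV and V are encoded by the mitochondrial genome. Muscles and neurons use this pathway heavily, and the proboscis holds both.

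The first experiment used flies of the parental genotype kept for 7 days on a sugar diet (n = 2) or on the control cornmeal diet (n = 2). The second used flies that all carried the driver Gr5a-GAL4, which is active in sweet taste neurons, and all spent 7 days on high sugar. In the OGT RNAi group (n = 5) the driver was combined with UAS-OGT-RNAi, a construct for knockdown of OGT by RNA interference, and the Gal4 control (n = 4) had the driver alone. OGT, encoded by sxc, attaches the sugar O-GlcNAc to proteins. A library pooled 200 proboscises in the diet experiment and 20 in the RNAi experiment, and the labels give a different library kit for each. The driver is active in few cells of the proboscis, whereas the RNA came from whole proboscises. In such bulk samples fewer cells of a type and less RNA per cell cannot be told apart.

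Total estimated counts were 5632598 and 6481195 in sugar diet libraries and 7559788 and 8105908 in control diet libraries. They lay between 8183507 and 13884994 in OGT RNAi libraries and between 11067627 and 13467476 in Gal4 control libraries. The RNAi target sxc had 137.7, 169.9, 133.4, 135.1 and 135.9 CPM (library-scaled counts, set by the TMM method so that most genes are equal between libraries) in OGT RNAi and 163.3, 141.7, 170.2 and 173.4 CPM in Gal4 controls. Its groups overlapped, and its log2 change of -0.19 did not pass (edgeR adjusted p = 0.376), so the RNA of whole proboscises gave no passing check of the labels. Gal4 control replicate 4 held 575.9 CPM of ninaE, the main photoreceptor opsin, and replicate 3 held 27.7 CPM, against 0.551 to 1.60 CPM in OGT RNAi libraries and 1.12 and 1.58 CPM in the other Gal4 controls. RNAi values are therefore also given without those 2 libraries.

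Levels were compared between genes in TPM, an abundance scaled to a fixed library total after accounting for transcript length. Of the 62 members 59 averaged over 10 TPM in the 13 libraries. The other 3 belonged to the ND- symbols. ND-51L1 had 3.50 TPM in sugar diet and 4.41 TPM in control diet libraries, and ND-51L2 had 3.45 TPM in sugar diet and 3.32 TPM in control diet libraries. ND-B8 was at 0 estimated counts in 12 of the libraries, with 0.0786 CPM in OGT RNAi replicate 3, and was not tested.

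Complex I genes had the lowest median level in all 4 groups. It was 101 TPM in sugar diet, 107 TPM in control diet, 193 TPM in OGT RNAi and 177 TPM in Gal4 control libraries. The complex III median was 265 TPM on sugar diet, 285 TPM on control diet, 346 TPM in OGT RNAi and 336 TPM in Gal4 controls. The complex V median was 329 TPM on sugar diet, 357 TPM on control diet, 536 TPM in OGT RNAi and 494 TPM in Gal4 controls. Complex IV had the highest median of the multi-subunit complexes in each group, with 367 TPM in sugar diet, 396 TPM in control diet, 678 TPM in OGT RNAi and 654 TPM in Gal4 control libraries. On sugar diet the per-library medians lay at 348 to 385 TPM for complex IV and 296 to 366 TPM for complex V. These ranges overlapped, but complex IV was the higher of both within each library. On control diet they lay at 386 to 406 TPM for complex IV and 344 to 359 TPM for complex V. Cyt-c-p, the cytochrome c gene measured here, averaged 555 TPM on sugar diet, 456 TPM on control diet, 421 TPM in OGT RNAi and 490 TPM in Gal4 controls.

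**Figure D1:**
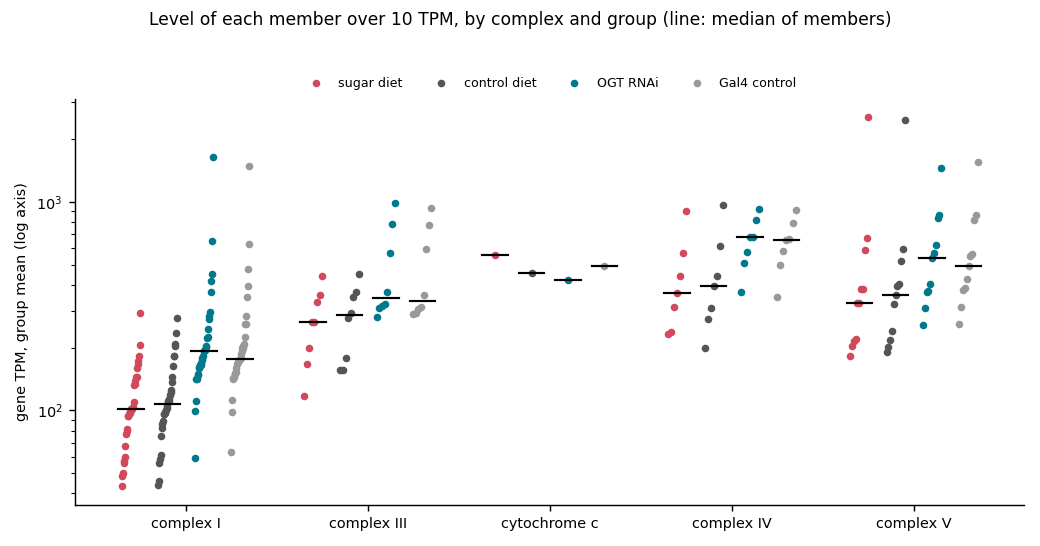
Mean gene level in TPM (log axis) of each member over 10 TPM, by complex, with a point per gene and a line at the median for sugar diet, control diet, OGT RNAi and Gal4 control libraries. Complex I sat lowest, at medians of 101 to 193 TPM, and ATPsynC stood above the other complex V genes in each group.

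Within complex V the highest level belonged to ATPsynC, which encodes the ring subunit that turns as protons pass. It had 2326 and 2770 TPM in sugar diet libraries and 2332 and 2580 TPM in control diet libraries. The ring holds many copies of this subunit. The lowest level on both diets belonged to ATPsyngamma, the central shaft, with a mean of 183 TPM on sugar diet and 190 TPM on control diet, so that ATPsynC stood 13.9 times higher on sugar diet. In complex I the span on sugar diet ran between 43.3 TPM for ND-30, a core subunit of the peripheral arm, and 294 TPM for ND-MLRQ, a small protein whose mammalian counterpart is now counted with complex IV. In complex IV it ran between 232 TPM for COX5B and 907 TPM for COX6B.

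The order of genes was not the same in both experiments. ND-MLRQ averaged 1640 ± 85.0 TPM in OGT RNAi and 1478 ± 48.3 TPM in Gal4 controls (SD, n = 5 and 4), against 294 ± 50.6 TPM on sugar diet and 279 ± 7.39 TPM on control diet (SD, n = 2 each). UQCR-6.4, a small complex III subunit with 40.5% of its exon bases opposite those of POSH, averaged 983 TPM in OGT RNAi, 929 TPM in Gal4 controls, 167 TPM on sugar diet and 156 TPM on control diet. Of these genes both stood far higher in the second experiment than in the first. Across the 59 members over 10 TPM, Gal4 controls stood at a median of 1.74 times the parental flies on the same diet. This ratio was 2.53 for the 12 members under 500 bases, 1.69 for the 36 of at least 500 but under 1000 bases and 1.46 for the 11 members of 1000 bases or more. Kit, input, genotype and experiment differed together and cannot be told apart, so no test was made across the experiments.

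The diet comparison asked how the proboscis transcriptome changed after 7 days of sugar. Relative to TMM scaling, 10 of 61 tested members rose on sugar diet and none fell. Over all 8825 genes tested, 3.12% rose and 3.35% fell, 6.47% in all (edgeR quasi-likelihood test, adjusted p under 0.05). Called members were found in each complex under the rule and in cytochrome c. Their folds ran between 1.22 for ATPsynC and 1.55 for ND-B14.5B. Where both sugar diet libraries of a called gene lay above both controls, this went with the choice of genes and is not separate support. Over all genes tested 23.5% were separated in this way as higher and 23.9% as lower.

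**Figure D2:**
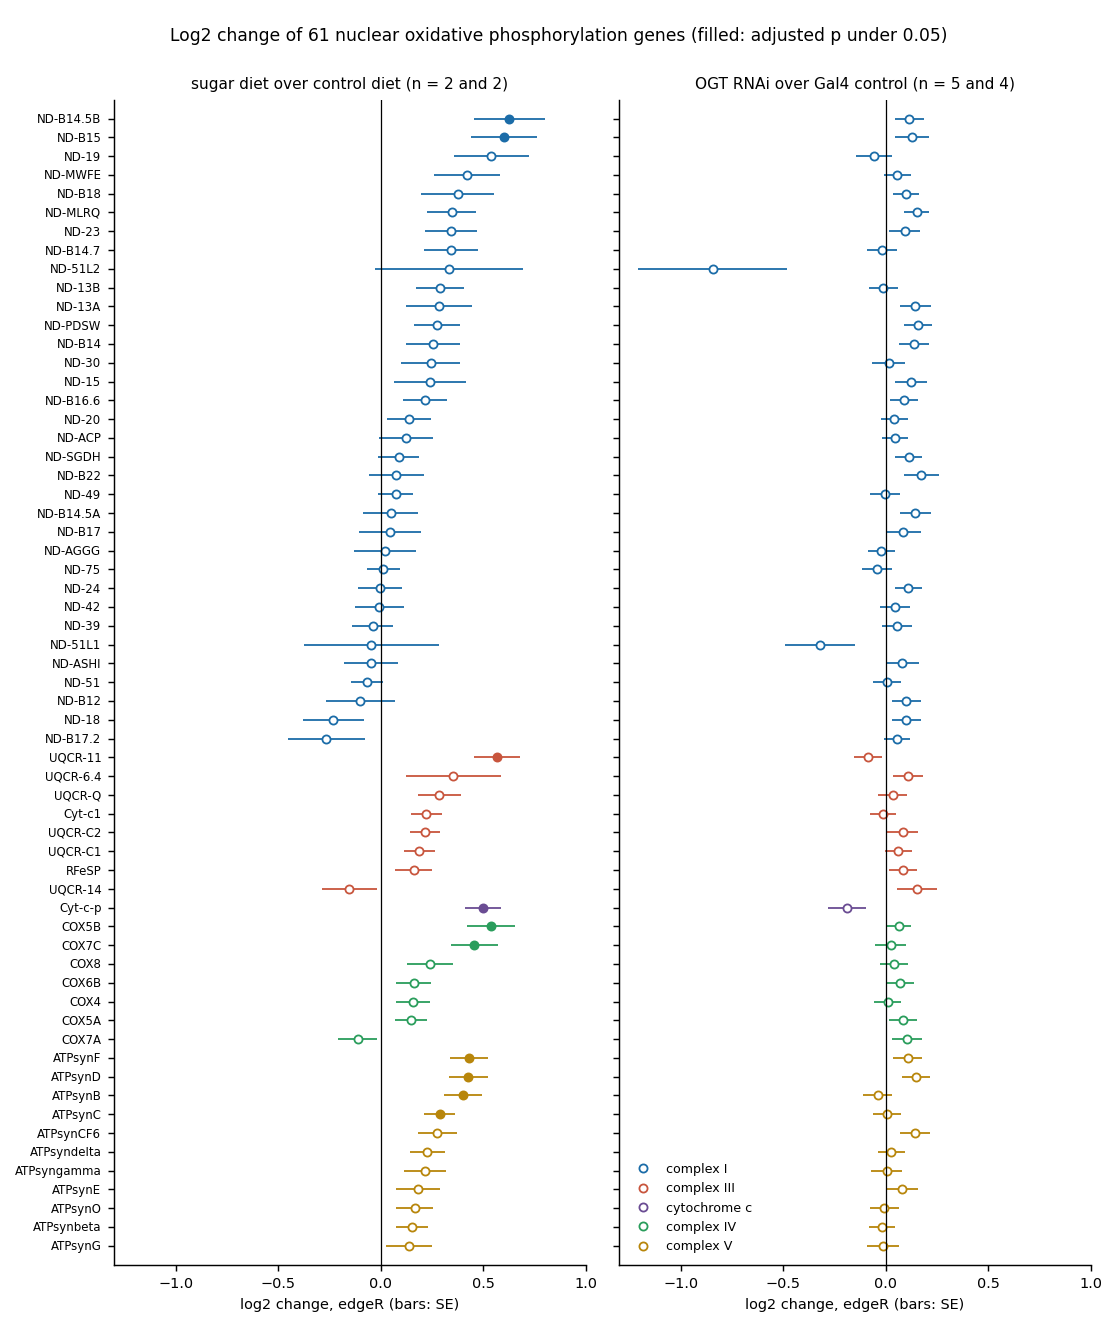
Log2 change with its standard error for the 61 tested members by complex, for sugar diet over control diet (left; n = 2 and 2) and OGT RNAi over Gal4 control (right; n = 5 and 4), with filled points at an adjusted p under 0.05. On the left 50 members lie above 0 and 10 are filled, and on the right 46 lie above 0 and none is filled.

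Cyt-c-p, the soluble carrier between complexes III and IV, had the smallest p of the members. It had 184.0 and 216.2 CPM on sugar diet against 141.3 and 141.9 CPM on control diet. Both sugar diet libraries stood above both control libraries. The log2 change was 0.50 ± 0.0885 (SE; edgeR adjusted p = 0.00189), a 1.42-fold rise. The gene lies on chromosome arm 2L at 16719932 to 16722644 of the BDGP6 annotation.

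In complex III the called gene was UQCR-11 (3L, 25120709 to 25126171), a small subunit. It had 111.9 and 93.4 CPM on sugar diet against 62.2 and 75.7 CPM on control diet, without overlap. Its log2 change was 0.57 ± 0.113 (SE; edgeR adjusted p = 0.00475). The subunits that carry out electron transfer or form the large core did not pass, though Cyt-c1, UQCR-C1 and UQCR-C2 were also higher without overlap. As many as 23.5% of all genes tested were separated as higher in this way, so it adds little for these genes. Not passing does not show that a gene was unchanged. In simulated data the edgeR test for the diet design found 31.3% of 1.5-fold changes. Cyt-c1, the cytochrome that hands electrons to cytochrome c, had 255.9 and 248.0 CPM on sugar diet against 213.9 and 217.6 CPM on control diet (log2 change 0.22, edgeR adjusted p = 0.107). The Rieske iron-sulphur protein RFeSP stood at a log2 change of 0.16, and the core proteins UQCR-C1 and UQCR-C2 at 0.19 and 0.22. The values of these 3 genes did not pass either. The largest negative value of the complex was -0.15 for UQCR-14, with 30.2 and 32.1 CPM on sugar diet against 32.6 and 36.7 CPM on control diet (edgeR adjusted p = 0.639). All exon bases of UQCR-14 lie opposite those of another gene, CG32576, and no strand setting is given in the sources used here, so reads of the pair cannot be told apart. The complex III median was 0.22 over 8 genes.

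Both called genes of complex IV encode small nuclear subunits around the catalytic core, which is itself mitochondrial. COX5B (2L, 6557800 to 6559308) had 90.4 and 86.1 CPM on sugar diet against 52.7 and 68.5 CPM on control diet, a log2 change of 0.54 ± 0.116 (SE; edgeR adjusted p = 0.00841). COX7C (2R, 10048353 to 10050066) had 55.3 and 61.6 CPM on sugar diet against 41.0 and 44.3 CPM on control diet, a log2 change of 0.46 ± 0.116 (SE; edgeR adjusted p = 0.0231). Neither gene's groups overlapped. Of COX7C exon bases, 15.7% lie opposite those of oys. COX7A went the other way without passing, at 77.8 and 71.4 CPM on sugar diet against 81.3 and 79.7 CPM on control diet (log2 change -0.11, edgeR adjusted p = 0.617). The most abundant member of the complex, COX6B, had 263.6 and 304.2 CPM on sugar diet against 245.1 and 263.1 CPM on control diet, and its log2 change of 0.16 did not pass. The median over the 7 genes was 0.16.

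Complex V had the most called members, 4 of 11, and a positive log2 change for each of the 11. ATPsynB and ATPsynD encode parts of the peripheral stalk that holds the catalytic head still. ATPsynB (3L, 9729999 to 9731224) had 137.4 and 120.7 CPM on sugar diet against 100.3 and 94.8 CPM on control diet. ATPsynD (3R, 19095000 to 19096271) had 215.8 and 271.9 CPM on sugar diet against 180.5 and 182.6 CPM on control diet. In both genes each sugar diet library stood above each control library. The log2 changes were 0.40 ± 0.0920 for ATPsynB and 0.43 ± 0.0964 for ATPsynD (SE; edgeR adjusted p = 0.0125 and 0.0113). The membrane subunit ATPsynF (2R, 24599088 to 24599821) had 173.5 and 207.7 CPM on sugar diet against 136.7 and 146.8 CPM on control diet, a log2 change of 0.43 ± 0.0926 (SE; edgeR adjusted p = 0.00841). The ring subunit ATPsynC (3R, 31216145 to 31219630) had 1255 and 1237 CPM on sugar diet against 1006 and 1035 CPM on control diet, a log2 change of 0.29 ± 0.0756 (SE; edgeR adjusted p = 0.0282). Here too no control library reached a sugar diet library. The catalytic beta subunit, ATPsynbeta, had 399.6 and 394.7 CPM on sugar diet against 374.1 and 340.4 CPM on control diet, and its log2 change of 0.15 did not pass (edgeR adjusted p = 0.328). Those of the other 6 genes lay between 0.14 and 0.28 and did not pass. The complex V median was 0.23.

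Complex I, the largest group, had 2 called members among 34 tested, beside 3.12% of all genes called higher and 6.47% called in either direction. So few calls say little about complex I as a whole. Both genes encode accessory subunits of its membrane arm. ND-B15 (2R, 14756516 to 14757072) had 26.5 and 34.3 CPM on sugar diet against 19.5 and 20.8 CPM on control diet, a log2 change of 0.60 ± 0.159 (SE; edgeR adjusted p = 0.0290). ND-B14.5B (2L, 3144953 to 3145848) had 21.1 and 29.4 CPM on sugar diet against 16.0 and 16.9 CPM on control diet, a log2 change of 0.63 ± 0.175 (SE; edgeR adjusted p = 0.0401). Neither gene's groups overlapped, but the sugar diet libraries lay farther apart than the control libraries. The 7 core subunits, which hold the flavin, the iron-sulphur clusters or the quinone site, gave no call and a median log2 change of 0.07. The 25 accessory subunits over 5 TPM had a median of 0.22. This grouping was made after values had been seen and was not tested. Of the complex I genes 9 were below 0, the farthest being ND-B17.2 at 18.6 and 21.9 CPM on sugar diet against 19.6 and 29.1 CPM on control diet, with overlapping groups (log2 change -0.27, edgeR adjusted p = 0.517).

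**Figure D3:**
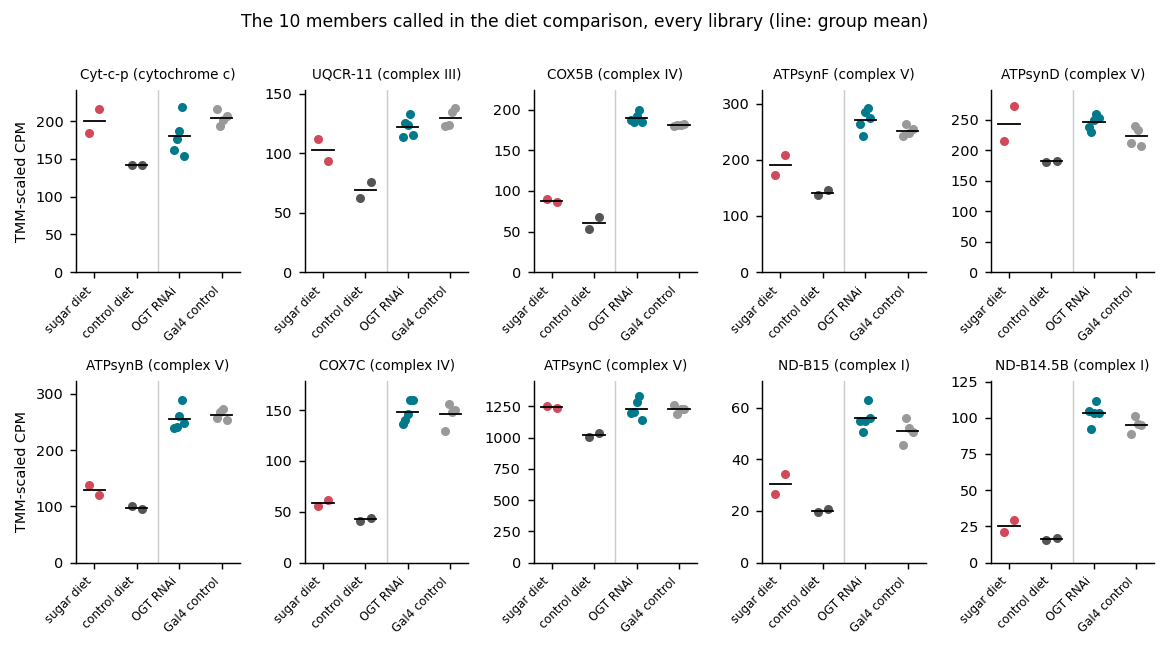
TMM-scaled CPM of the 10 members called in the diet comparison, with a point for each library and a line at the group mean; scaling was done within each experiment, on either side of the grey line. In each panel both sugar diet points lie above both control diet points, while OGT RNAi and Gal4 control points overlap except for COX5B. The 10 were picked as higher from these same diet libraries, so the separation of the diet points is not separate support.

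Taking all tested members, 50 had a log2 change above 0 on sugar diet, against 50.6% of all genes tested, and the median was 0.22, against 0.00 for all genes. At an unadjusted p under 0.05, 24 members were higher and none lower, beside 8.85% of all genes higher and 8.87% lower. DESeq2 called 6 members higher, with 4.63% of all genes called. In 37 members both sugar diet libraries lay above both control libraries, beside 23.5% of all genes, and in 4 members both lay below, beside 23.9%. Genes under 1000 bases had a median of 0.04 over all 1367 tested, and the 48 short members among them had a median of 0.24.

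The direction of these values depends on the scaling. Without scaling factors the members took nearly the same share of all counts on both diets, 0.634 and 0.697% on sugar diet against 0.643 and 0.673% on control diet. A single gene, Arc1, took 12.6 and 13.4% of counts on sugar diet against 7.40 and 7.51% on control diet. With Arc1 and the mitochondrial genome left out of the TMM-scaled fit, 10 members were called and their median was 0.22, as before. The part of Arc1 in the effect of scaling was not tested. Without scaling factors the median of all genes was -0.20 and that of the members was 0.02, 0.21 above all genes, and no member was called. On the log2(TPM + 1) scale the members' median was -0.08, against -0.25 for all genes, and limma called no member and 5.34% of all genes. The calls therefore describe levels relative to most other genes, not the members' share of all counts. With control diet replicate 1 left out no member was called, and without control diet replicate 2 the count was 2. Without sugar diet replicate 1 it was 22, and without sugar diet replicate 2 it was 11. Each of these fits leaves 1 library in an arm, which is assumed to vary like the 2 libraries of the other diet, so the counts say little about stability.

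**Figure D4:**
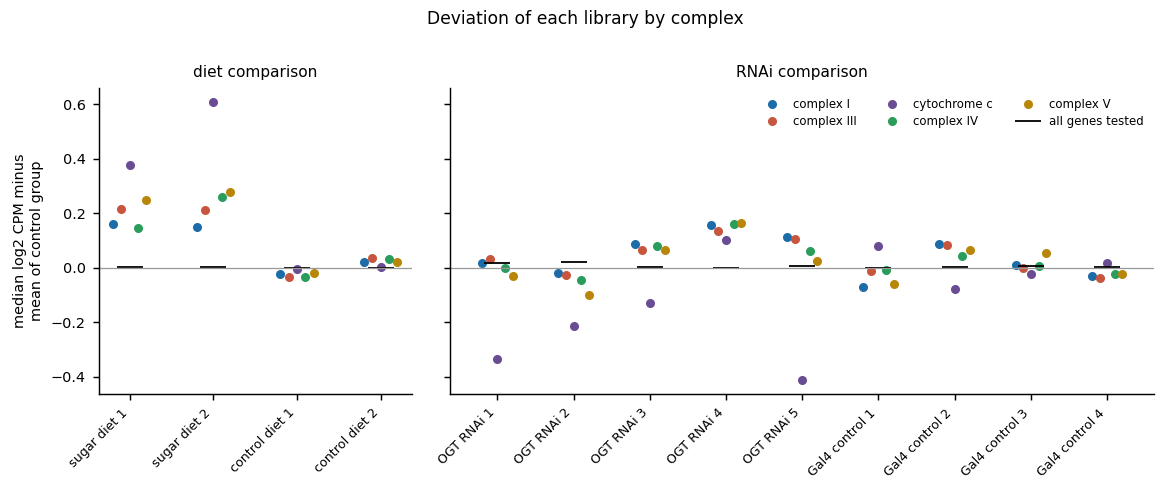
Median over the genes of each complex of log2 CPM minus the mean of the control diet libraries (left) or the Gal4 control libraries (right), by library, with a short line for all genes tested. Both sugar diet libraries lie between 0.15 and 0.61 in each complex, while OGT RNAi libraries spread on both sides of 0.

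Muscle markers moved with the members. Of 17 markers 14 were tested, all 14 were positive and 7 rose on sugar diet, with a median log2 change of 0.37. Among them were the actin Act57B, at 4236 and 4096 CPM on sugar diet against 3046 and 3004 CPM on control diet, and the tropomyosin Tm1, at 449.1 and 440.8 CPM on sugar diet against 309.8 and 331.2 CPM on control diet. Summed muscle markers lay at 40230 and 34270 CPM on sugar diet against 28240 and 27790 CPM on control diet. The defining flight muscle markers Act88F and fln averaged under 1 CPM on both diets. Markers of fat body went mostly the other way, with 3 lower and 1 higher of 4 tested, and their sum was 1124 and 1141 CPM on sugar diet against 1473 and 1545 CPM on control diet. Glial markers had 2 higher of 5 tested and haemocyte markers 1 higher of 6, whereas neuronal markers had 1 lower of 11 and markers of taste and support cells 1 lower of 5. Testis markers summed to at most 1.38 CPM. The part of these cell types in the members' values was not tested.

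Transcripts of the mitochondrial genome, which encode the partner subunits, did not rise with the nuclear ones. Of 13 such genes 11 had a negative log2 change on sugar diet, with a median of -0.20. The gene that fell was mt:ND3, a complex I subunit, with 69.1 and 60.0 CPM on sugar diet against 88.8 and 89.4 CPM on control diet (log2 change -0.47, edgeR adjusted p = 0.00812). Its groups did not overlap. In 5 of the 13 genes both sugar diet libraries lay below both control libraries, beside 23.9% of all genes. Summed after TMM scaling, the 13 genes held 76370 to 100900 CPM on sugar diet, overlapping 95670 to 101100 CPM on control diet. As a share of counts without TMM scaling, the mitochondrial genome took 9.07 and 7.38% on sugar diet and 10.7 and 10.4% on control diet. The difference of -2.33 percentage points had a two-sided exact permutation p of 0.333, the smallest that 2 against 2 libraries allow. The 4 genes of complex II, which also belongs to the citric acid cycle, gave no call and a median of 0.08.

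Among proteins that serve the pathway, 1 of 10 tested carriers and membrane partners rose. This was Mpcp1, a phosphate carrier that supplies ATP synthase, with 221.9 and 230.9 CPM on sugar diet against 171.6 and 159.4 CPM on control diet (log2 change 0.45, edgeR adjusted p = 0.00198). The other phosphate carrier, Mpcp2, stood at a log2 change of -0.01. The adenine nucleotide carrier sesB had 1244 and 1140 CPM on sugar diet against 1012 and 984.3 CPM on control diet and did not pass (log2 change 0.26, edgeR adjusted p = 0.0658). None of 11 assembly factors and none of 10 regulators of mitochondrial genes was called, at medians of 0.01 and 0.05. Of the 5 subunits missed by the name rule, levy rose, with 182.0 and 175.0 CPM on sugar diet against 140.5 and 145.4 CPM on control diet (log2 change 0.32, edgeR adjusted p = 0.0222). The others had log2 changes of 0.09 for blw, 0.27 for cype, 0.52 for ox and 0.19 for ND-MNLL and did not pass. Of the 15 symbols left out for their final L, which are mostly low-expressed paralogs, 2 were tested and neither was called.

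**Figure D5:**
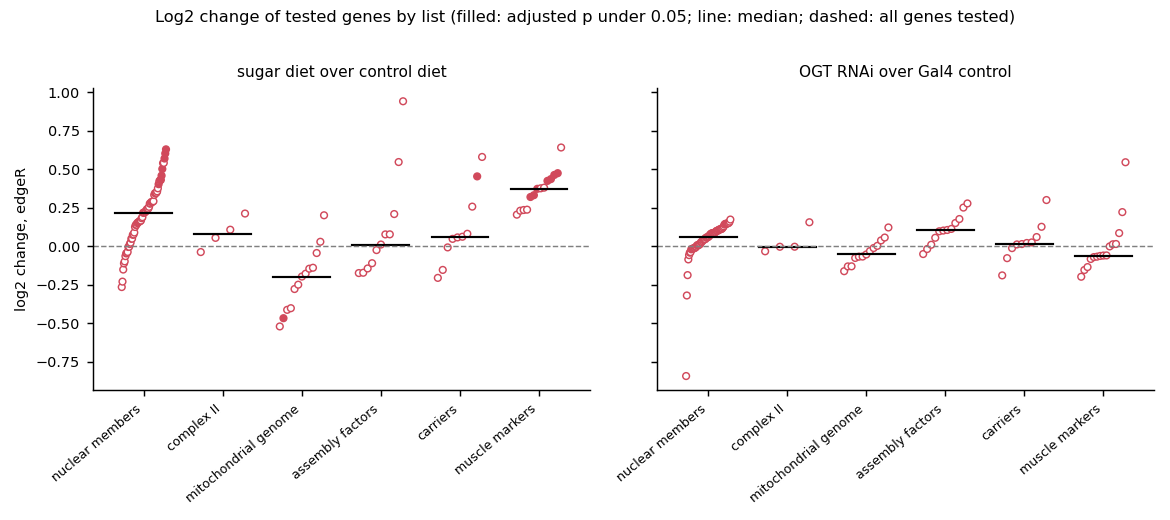
Log2 change of the tested genes of each list for sugar diet over control diet (left) and OGT RNAi over Gal4 control (right), with filled points at an adjusted p under 0.05 and a line at each list's median. On the left nuclear members lie around 0.22, genes of the mitochondrial genome around -0.20 and muscle markers around 0.37.

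The RNAi comparison asked how RNAi against OGT in sweet taste neurons changes expression on a high sugar diet. None of 61 tested members was called in either direction, where 1.04% of all 9399 genes tested were higher and 0.223% lower, 1.27% in all (edgeR, adjusted p under 0.05). DESeq2, with 2.53% of all genes called, and limma on log2(TPM + 1), with 0.816%, called none either. At an unadjusted p under 0.05, 2 members were higher and 1 lower, beside 7.42 and 5.47% of all genes. The members' log2 changes had a median of 0.06, against 0.00 for all genes. Above 0 lay 46 of the 61, beside 50.8% of all genes. Most members are short. All 1599 tested genes under 1000 bases had a median of 0.07, with 1050 above 0, and the 48 short members had a median of 0.08, with 39 above 0. The part of gene length in the members' values was not tested. For members over 1 TPM the log2 changes ran between -0.32 and 0.17.

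The members with the smallest p have ND- symbols, which were counted here with complex I. ND-MLRQ had 304.5, 282.9, 292.5, 302.9 and 298.2 CPM in OGT RNAi against 257.4, 262.5, 276.0 and 272.0 CPM in Gal4 controls. Every OGT RNAi library stood above every control. The log2 change was 0.15 ± 0.0599 (SE; edgeR unadjusted p = 0.0245, adjusted p = 0.297). ND-PDSW, an accessory subunit, had 110.7, 109.5, 117.6, 129.3 and 117.2 CPM in OGT RNAi against 100.6, 107.0, 109.0 and 101.9 CPM in Gal4 controls, also without overlap (log2 change 0.16, edgeR adjusted p = 0.333). The groups did not overlap in 2 more members, ND-B18 and COX5B, both higher in OGT RNAi, which makes 4 of 61, beside 3.73% of all genes. None lay wholly below the controls, beside 1.81% of all genes. ND-51L2, a low-expressed relative of the flavin subunit gene ND-51, had 1.09, 1.40, 0.315, 0.615 and 0.583 CPM in OGT RNAi against 1.12, 1.83, 1.74 and 1.13 CPM in Gal4 controls. Its groups overlapped, and its log2 change of -0.84 did not pass (edgeR adjusted p = 0.343).

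Medians by complex stayed close to 0, at 0.08 for complex I, 0.07 for complex III, 0.06 for complex IV and 0.01 for complex V. The farthest positive values were 0.17 for ND-B22 in complex I, 0.15 for UQCR-14 in complex III, 0.10 for COX7A in complex IV and 0.15 for ATPsynD in complex V, and none passed. Of ND-B22 exon bases, 26.1% lie opposite those of CG31855. The farthest negative values were -0.09 for UQCR-11 in complex III and -0.04 for ATPsynB in complex V. Cyt-c-p had 161.9, 176.4, 187.0, 219.2 and 153.6 CPM in OGT RNAi against 216.1, 193.7, 201.2 and 207.0 CPM in Gal4 controls. The highest OGT RNAi library lay above all controls and the other 4 lay below them, and the log2 change of -0.19 ± 0.0918 did not pass (SE; edgeR adjusted p = 0.412). Without the 2 controls with photoreceptor transcripts no member was called, the members' median was 0.06 and that of complex III was -0.01.

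In the RNAi experiment the members' summed level varied within each group. Summed over the members, OGT RNAi libraries held 10950, 10630, 11430, 12090 and 11370 CPM, against 10850, 11420, 10970 and 10700 CPM in Gal4 controls. The groups overlapped. The coefficient of variation of the members over 10 TPM had a median of 6.82% in OGT RNAi and 5.69% in Gal4 controls. It was 7.10% on sugar diet and 5.04% on control diet. The most variable members were Cyt-c-p in OGT RNAi, at 14.3%, and UQCR-6.4 on sugar diet, at 42.3%, where its libraries held 16.2 and 30.0 CPM.

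Other lists gave no call in the RNAi comparison. The median log2 change was -0.00 for complex II, -0.05 for the mitochondrial genome, 0.10 for assembly factors, 0.02 for carriers and -0.03 for regulators. Transcripts of the mitochondrial genome took 6.12 ± 0.530% of counts in OGT RNAi and 6.39 ± 0.688% in Gal4 controls (SD, n = 5 and 4), with a two-sided exact permutation p of 0.524. None of 15 tested muscle markers was called, and their sum lay at 18810 to 23820 CPM in OGT RNAi against 18790 to 25980 CPM in Gal4 controls.

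Side by side, the 2 comparisons share no libraries. Of the 61 members tested in both, 36 had a log2 change above 0 in both, 14 above 0 for diet and below 0 for RNAi, 10 the reverse and 1 below 0 in both. For the 10 members called on sugar diet the RNAi log2 change ran between -0.19 and 0.15, above 0 in 7. Whether the 2 comparisons differ for a member was not tested.

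The authors' deposited tables hold an effect b on the natural-log scale and a q-value for each transcript. Of 160 member transcripts 130 had a q-value for the diet, and the authors' deposited table held 2 under 0.05, which is 1.54% beside 1.06% of all transcripts. These were FBtr0079288 of COX5B, with b of 0.507 and q of 0.0443, and FBtr0344849 of Cyt-c-p, with b of 0.794 and q of 0.0261 in the authors' deposited table. FBtr0344849 was estimated at 342 and 500 TPM on sugar diet against 178 and 282 TPM on control diet. The other Cyt-c-p transcript, FBtr0080889, was estimated at 117 and 150 TPM on sugar diet against 255 and 197 TPM on control diet. In all 9 libraries of the RNAi experiment FBtr0344849 was listed at 0 and FBtr0080889 took the whole gene, so how reads were divided between these transcripts differed between the experiments. For RNAi the authors' deposited table had 1 member transcript under 0.05 among 147, which is 0.68% beside 0.792% of all transcripts. It was FBtr0078117 of ND-15, a complex I accessory subunit, with b of 0.387 and q of 0.0016. This transcript was estimated at 143 to 190 TPM in OGT RNAi against 96.4 to 129 TPM in Gal4 controls, without overlap. It was picked by its q-value from these same libraries, so the separation is not separate support. Another ND-15 transcript, FBtr0078118, went the other way, at 0 to 9.71 TPM in OGT RNAi against 12.9 to 25.6 TPM in Gal4 controls. The part of read division between ND-15 transcripts was not tested. The summed counts of ND-15 had a log2 change of 0.12 and did not pass (edgeR adjusted p = 0.568).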

How the data were processed

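RNA sequencing of 13 libraries of Drosophila melanogaster proboscises, in 4 groups, was used. Per the submitters' processing notes the tools were Trimmomatic 0.22, kallisto 0.43 and sleuth, whose version is not given in the sources used here; nor are the genome build, annotation, strand setting, model or filters. The authors deposited estimated counts per transcript (expected counts, not normalized; 54.1% not whole within 1e-06). The authors made TPM with kallisto, per the file headers and the submitters' processing notes, by scaling abundance within each library, and deposited it beside effective lengths in bases. The authors also deposited result tables with b on a natural log (ln) scale, p-values and q-values.

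Estimated counts were summed per gene and rounded. Targets without a symbol, 52 of 30449 and 0.0420 to 0.0569% of counts, were left out. Each experiment was fitted on its own with edgeR 4.0.16 in R 4.3.3. Low genes were dropped by filterByExpr at a minimum count of 10 and a minimum total of 15. After TMM scaling, the quasi-likelihood F test was run with robust dispersions and Benjamini-Hochberg adjustment over all genes tested. Called means an adjusted p under 0.05. The SE of a log2 change is its size over the square root of F. CPM is the count per library total after TMM scaling. No test was made over the list of members. A count of 0 allows up to 3 counts, 0.216 to 0.533 CPM over the libraries. Such limits cover counting error only. The series' design text calls the replicates biological.

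Positions came from the BDGP6 annotation, in which 159 of 160 member transcripts were found, each with the spliced length in the files. No member had the same counts as another gene. Exons of 26 members overlap a gene on the opposite strand and those of 6 share bases with one on the same strand. Alternatives used DESeq2 1.42.0, limma 3.58.1 on log2(TPM + 1) and log2(TPM + 0.1), other scaling, filters and offsets, 1 fit of all 13 libraries, the replicate block and leaving out libraries. The test was tested on simulated data. Exact permutation tests used scipy 1.17.1.

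Members and lists were chosen with earlier results of these data known. Genes were named by rule: called members, the member of highest and lowest TPM and of largest positive and negative log2 change in each complex, and called genes of the other lists. Further genes were named after their values were seen. A planned description of promoter motifs was not run, as no sequence table was used here.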

Additional observations from a re-analysis of the deposited data

Results flagged for a closer look

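Of 56 sets of values examined for a sample far from the others of its group, 2 stood out, where chance marks about 1 in 20. Neither concerns a member directly. The RNAi target sxc had 169.9 CPM in OGT RNAi replicate 2, while the other 4 OGT RNAi libraries lay between 133.4 and 137.7 CPM. The summed photoreceptor markers came to 1232 CPM in Gal4 control replicate 4, while the other 3 Gal4 controls lay between 121.5 and 205 CPM. No member was called without OGT RNAi replicate 2 or without Gal4 control replicate 4. The part of either library in the members' values was otherwise not tested.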

How the results depend on the processing

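In the diet comparison 10 members were called higher. The count was 6 with DESeq2, 0 without scaling factors, 0 with limma on either TPM scale, and 0 to 22 when 1 library was left out, where the lone library is assumed to vary like the 2 of the other diet. It stayed at 10 with the replicate block, and no member was called lower under any alternative. DESeq2 lost ATPsynB, COX7C, ND-B14.5B and ND-B15. Without control diet replicate 2, UQCR-11 and COX5B remained. Calls over all genes, 571 as reported, came to 949 without scaling factors, 306 with DESeq2, 300 with all 13 libraries in 1 fit, 195 to 938 with 1 library left out and 728 with the replicate block. The members' median log2 change of 0.22 became 0.016 without scaling factors, -0.075 on log2(TPM + 1), -0.076 on log2(TPM + 0.1) and 0.24 with all 13 libraries, and ran between 0.19 and 0.22 with 1 library left out. The median of all genes was -0.20 without scaling factors, -0.25 on log2(TPM + 1) and -0.28 on log2(TPM + 0.1), and the members' median relative to it was 0.21, 0.17 and 0.20. By complex, the medians without scaling factors were -0.070 for complex I, 0.019 for complex III, -0.038 for complex IV and 0.024 for complex V. On both TPM scales they were -0.15, -0.068, -0.10 and -0.057 in that order. With 1 library left out they ran between 0.14 and 0.20 for complex I, 0.20 and 0.23 for complex III, 0.15 and 0.26 for complex IV, and 0.23 and 0.31 for complex V. With all 13 libraries complex I stood at 0.15. The 10 called members gave 140 values under the alternatives, all 140 above 0. They were picked as higher from these same libraries, so the shared sign is not separate support. None of the 10 passed without scaling factors or with limma on either TPM scale. The cause of these shifts was not tested.

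In the RNAi comparison no member was called under any alternative run. Calls over all genes, 119 as reported, came to 254 with DESeq2, 75 and 76 with limma on log2(TPM + 1) and log2(TPM + 0.1), 63 with the replicate block, 42 to 264 with 1 library left out and 4 without the 2 Gal4 control libraries with photoreceptor transcripts, an alternative chosen after seeing the data. Without those libraries complex III stood at -0.0073. Leaving out 1 library moved the complex V median between -0.03 and 0.04. The replicate block changed no call of a member. Replicate numbers are not stated to pair the samples. Deviations of same-numbered libraries correlated at 0.0031 in the diet experiment and at -0.295 to 0.168 in the RNAi experiment. These values cannot decide whether libraries were prepared as pairs, and on each diet the 2 deviations mirror each other. With 2 libraries a group on each diet, precision rests on few samples.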
